A study of Mus musculus with 8 samples.

Results

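Apolipoproteins coat the particles that carry cholesterol, triglyceride and fat-soluble vitamins between cells, and a few further proteins load lipid into those particles. The 10 genes described here were Apoa1, Apoa2, Apoa4, Apob, Apoc2, Apoe, Apom, Mttp, Soat2 and Pla2g12b, found by symbol among 14496 genes of a mouse embryonic brain table. They were selected on their NTD against control values in these same libraries, so those values are given as a description. The errors beside their fold changes are standard errors of the fitted model, are not the spread of the libraries, and are given as a description too. The NTD (neural tube defect) group had 3 libraries from embryos of dams on a low folate diet given the antifolate methotrexate by injection on gestational day 7.5, at a dose of 1.5 mg/kg. The control group had 3 libraries from embryos with closed neural tubes whose treatment label is normal saline, and the diet of their dams was not given, so diet and drug were compared together. Embryos were examined between day 9.5 and day 10.5. The labels give neither the strain nor the litter of these embryos, and assignment to the NTD group followed visible malformation, mainly of the hindbrain and spine, with delayed growth. A separate pair of libraries, 1 each, came from Sv129 mouse embryonic stem cells (mESC) grown in folate-free medium (FA0) or in that medium with 4 mg/L folate added (FA4).

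In the midgestation mouse, lipoproteins are made by the visceral endoderm of the yolk sac, which takes up maternal lipid on its outer face and exports it to the embryo, and later by the liver. Apolipoprotein B is the scaffold of triglyceride-rich particles, and the microsomal transfer protein Mttp loads lipid onto it in the endoplasmic reticulum. Apolipoproteins A1 and A2 build high density lipoprotein (HDL), apolipoprotein C2 activates lipoprotein lipase, and apolipoprotein E is a ligand for receptors that take up particles. Mice with shortened apolipoprotein B can develop exencephaly, an open cranial neural tube, and mouse embryos without Mttp die in midgestation.

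Gene positions are on GRCm38 (mm10) in the GENCODE M21 annotation. Of the 10 genes, 4 lay in apolipoprotein clusters. Apoa1 (chr9:46228580-46230466, plus strand) and Apoa4 (chr9:46240696-46243459, plus strand) share a cluster with Apoc3 and Apoa5. Apoe (chr7:19696109-19699188, minus strand) and Apoc2 (chr7:19671579-19677941, minus strand) share the other with Apoc1 and Apoc4. The remaining 6 genes were spread over chromosomes 1, 3, 10, 12, 15 and 17. RefSeq start sites (GRCm38.p6, 250 bases before to 50 after the start) were matched for 9 of the 10 genes in 12 entries. Upstream stretches of 5 genes are shown because they include the HNF4 match, the TATA box of Apob and both HDL scaffold genes. Bases of protein-coding exons were left out. Capitals mark a motif match, and the Apoa1 stretch held none.
Apoa1, chr9:46228380-46228579, plus strand: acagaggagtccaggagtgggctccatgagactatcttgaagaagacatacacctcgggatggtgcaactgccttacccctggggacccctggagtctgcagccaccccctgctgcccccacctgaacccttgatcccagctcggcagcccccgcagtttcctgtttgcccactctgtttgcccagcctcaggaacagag
Apoa2, chr1:171224804-171225053, plus strand: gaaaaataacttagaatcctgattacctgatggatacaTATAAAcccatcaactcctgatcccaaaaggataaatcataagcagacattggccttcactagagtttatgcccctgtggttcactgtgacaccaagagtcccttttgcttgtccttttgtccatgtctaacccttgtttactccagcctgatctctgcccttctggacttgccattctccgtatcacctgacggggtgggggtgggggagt
Apoa4, chr9:46240594-46240695, plus strand: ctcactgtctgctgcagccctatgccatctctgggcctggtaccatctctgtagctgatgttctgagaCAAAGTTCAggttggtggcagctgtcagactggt
Apob, chr12:7977427-7977647, plus strand: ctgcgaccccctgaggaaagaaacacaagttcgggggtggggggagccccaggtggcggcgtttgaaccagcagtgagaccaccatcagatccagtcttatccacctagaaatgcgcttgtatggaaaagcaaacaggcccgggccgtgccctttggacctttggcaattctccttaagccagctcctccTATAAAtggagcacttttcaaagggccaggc
Apoc2, chr7:19677942-19678082, minus strand: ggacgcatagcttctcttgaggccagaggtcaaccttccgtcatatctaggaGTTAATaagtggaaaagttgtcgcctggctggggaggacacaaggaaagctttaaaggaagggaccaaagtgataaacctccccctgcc

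Motif letters were searched on both strands, and TATAAA on the strand of the gene. Positions of matches are counted from the RefSeq start. For Apoa4 (chr9:46240844) and Apob (chr12:7977677) it lies downstream of the GENCODE start, so their matches are nearer to the latter. None of the motifs searched overlaps another in these stretches. CAAAGTNCA, the site letters of HNF4, a nuclear receptor of liver and visceral endoderm, were present in 1 of the 12 entries, that of Apoa4 at -182 to -174 from its start, and in 1.41% of 32851 mouse promoters of this length. GTTAAT, which is part of the palindromic site of HNF1, was present in 2 entries, Apoc2 at -89 to -84 and an internal start of Apoe at -172 to -167, against 7.10% of all promoters. TATAAA was present in 3 entries, against 8.32% of all promoters. They were Apob at -60 to -55, Apoa2 at -212 to -207 and another internal start of Apoe at -96 to -91. AGATAA, the letters of a GATA factor site, was present in 0 of the 12 entries and in 11.2% of all promoters. These are letter matches only, in short windows.

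Per library, the brain table held 17335564 to 26788304 counts, and each value below is in CPM, a count divided by the TMM-adjusted size of its library. The labelled tissue was checked against neural and other markers. Among 10 neural markers, Tubb3 had 279, 325 and 304 CPM in NTD libraries 1 to 3 and 2353, 1259 and 1101 CPM in controls 1 to 3. Tubb3, Dcx and Hes5 were called lower in NTD by edgeR (adjusted p = 0.00378, 0.000613 and 0.0265), and Sox2 stayed under 7 CPM in every library. Control library 1 stood apart: it held 3 counts or fewer for 99 of 6440 abundant genes (mean over libraries of 500 counts or more), against 8 to 35 genes in each other library. Fewer cells of a type and less RNA per cell cannot be told apart in these bulk samples.

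Summed over the 10 genes, the level was 3575, 2601 and 3942 CPM in NTD libraries 1 to 3, against 55.6, 138 and 304 CPM in controls 1 to 3. The groups lay far apart, and the lowest NTD sum was 8.56 times the highest control sum. The sum averaged 3373 ± 693 CPM in NTD and 166 ± 127 CPM in controls (SD, n = 3 each), a 20.3-fold ratio of means, which was 34.6-fold without control library 3. These transcripts took 0.250% to 0.378% of all counts in NTD libraries and 0.00578% to 0.0307% in controls. All 10 genes passed the filter on low counts. Of these, Soat2 and Pla2g12b were under the filter minimum in every control and so passed through their NTD values. Under edgeR's quasi-likelihood test over 11626 genes, 7 of the 10 genes were called higher in NTD and 0 lower at an adjusted p under 0.05, where 1.89% of all genes were called higher and 0.998% lower. In 10 of 10 genes every NTD value lay above every control value, as in 12.4% of all genes tested. The genes were chosen by this contrast, which fixes such an outcome, so these counts are no test of the genes and nothing is read from them, for the set or for any single gene. The plot of levels by library shows the 10 genes one by one.

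**Figure D1:**
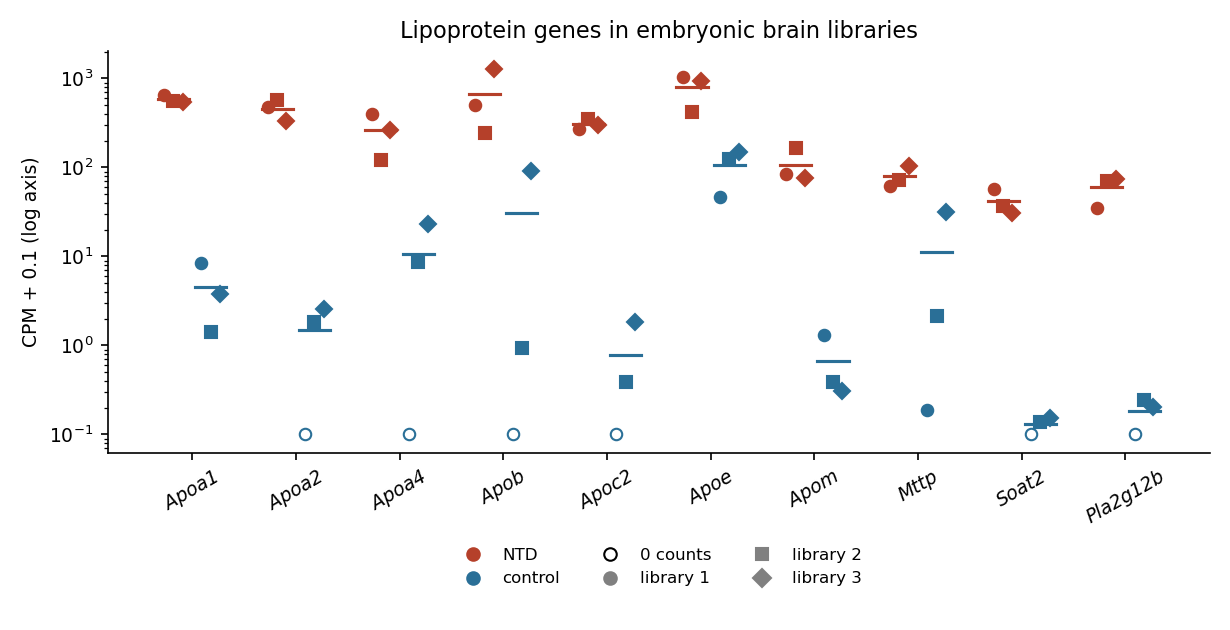
CPM of the 10 genes in each library, plotted as CPM + 0.1 on a log axis, with the 3 NTD libraries left of the 3 controls; horizontal lines are group means and open symbols are libraries with 0 counts. Every NTD point lies above every control point of the same gene, and the 6 open symbols all belong to control library 1.

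Among the HDL scaffold genes, Apoa1, which encodes the main HDL protein and the activator of cholesterol esterification in plasma, was even across NTD. It had 653, 555 and 549 CPM in NTD libraries 1 to 3, against 8.37, 1.31 and 3.65 CPM in controls 1 to 3. Its log2 fold change was 7.04 ± 0.66 (SE). Apoa2, the second structural protein of HDL, had 475, 569 and 329 CPM in NTD, against 0, 1.72 and 2.45 CPM in controls. Both were high in every NTD library and at 8.37 CPM or less in every control. The log2 fold change of Apoa2 was 8.37 ± 1.21. Apom, an HDL protein that carries the lipid signal sphingosine phosphate, had 84.1, 164 and 75.3 CPM in NTD, against 1.21, 0.292 and 0.209 CPM in controls, with NTD library 2 the highest. It rested on 40 pooled control counts, and its log2 fold change was 7.54 ± 0.81.

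Apoa4 is a lipid-binding protein of intestinal lipoproteins and HDL. Its levels were 395, 122 and 266 CPM in NTD libraries 1 to 3, against 0, 8.55 and 23.2 CPM in controls 1 to 3. It was more uneven than its cluster neighbour Apoa1: NTD library 2 was the lowest, and control 3 was the highest control. Apoa4 had a log2 fold change of 4.63 ± 1.68. The annotation places antisense transcripts over 632 to 634 of its 1815 exon bases, and the strand setting of the counting was not given, so reads of either strand cannot be told apart.

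Apoc2, the cofactor of lipoprotein lipase, had 270.5, 349 and 297 CPM in NTD, against 0, 0.292 and 1.72 CPM in controls. The NTD libraries differed little, and all 3 controls were low. The log2 fold change was 8.89 ± 1.18 for Apoc2. A same-strand readthrough gene, Gm44805, covers 646 of its 813 exon bases, so reads of Apoc2 and of the readthrough transcript may have been split in counting. Apoe was the exception among the 10 genes in controls. It had 1041, 420 and 937 CPM in NTD, against 46.0, 123 and 151 CPM in controls, so that every control held it well above 0. In the mature brain, apolipoprotein E is made by glia, and the source of Apoe in these embryonic libraries was not tested. For Apoe the log2 fold change was 2.91 ± 0.48 and the ratio of means 7.50.

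Of the genes that assemble apolipoprotein B particles, Apob itself varied most within both groups. It had 503, 244 and 1278 CPM in NTD libraries 1 to 3, against 0, 0.840 and 90.7 CPM in controls 1 to 3. Apob was highest in NTD 3 and, among controls, present at a sizeable level in control 3 alone. Its log2 fold change was 4.47 ± 2.33 and became 10.57 without control library 3. Mttp had 62.0, 71.6 and 105 CPM in NTD, against 0.0863, 2.05 and 31.2 CPM in controls, again with control 3 the highest control. Its log2 fold change was 2.84 ± 1.53, and 6.19 without control library 3. Trmt10a on the opposite strand overlaps 457 of the 6206 exon bases of Mttp.

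Soat2, which esterifies cholesterol for storage and for the core of apolipoprotein B particles, had 57.0, 36.8 and 30.5 CPM in NTD, against 0, 0.0365 and 0.0522 CPM in controls. The 3 controls together held 2 counts, and the ratio of pooled CPM was 1495 (95% exact binomial interval 414 to 12352, which covers counting error only). Pla2g12b, a member of the secreted phospholipase family without catalytic activity that helps load lipid onto apolipoprotein B particles in mouse liver and in zebrafish, had 34.8, 71.2 and 74.4 CPM in NTD, against 0, 0.146 and 0.104 CPM in controls. Both genes were near 0 in every control, including control 3, where Apob and Mttp were present. The log2 fold change of Pla2g12b was 9.38 ± 1.03, on 6 pooled control counts.

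Zeros clustered in 1 library. Apoa2, Apoa4, Apob, Apoc2, Soat2 and Pla2g12b had 0 counts in control library 1, where 3 counts would be 0.129 CPM, and no other library held a 0 for any of the 10 genes. This is also the library with the most abundant genes at 3 counts or fewer, and its part in these zeros was not tested. In the 2 other controls the 10 genes summed to 138 and 304 CPM.

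To compare genes with each other, CPM was divided by the length of each gene's exons in kb. On that scale Apoa2 was the highest of the 10 genes in NTD, with 884, 1059 and 614 CPM per kb in libraries 1 to 3, against 0, 3.20 and 4.57 CPM per kb in controls 1 to 3. It ranked 77th, 71st and 107th of 14420 genes with a known length in NTD, and between 6419th and 11076th in controls. Apoa1 averaged 474 ± 47.1 CPM per kb in NTD and 3.60 ± 2.91 in controls (SD, n = 3 each). Apoc2 averaged 376 ± 49.1 CPM per kb in NTD and 0.826 ± 1.13 in controls, and Apoe 374 ± 156 CPM per kb in NTD and 49.9 ± 25.4 in controls. Within NTD the libraries of Apoe overlapped those of Apoa1 and of Apoc2, while Apoa2 lay above Apoa1 and Apoa1 above Apoc2 in all libraries. Apoa4 followed at 144 ± 75.2 CPM per kb in NTD and 5.83 ± 6.46 in controls, and Apom at 106 ± 48.0 in NTD and 0.562 ± 0.547 in controls, and their libraries overlapped. Pla2g12b (50.9 ± 18.6), Apob (48.4 ± 38.6), Soat2 (18.7 ± 6.26) and Mttp (12.8 ± 3.65) were the lowest in NTD, and the libraries of each overlapped those of the next.

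The make-up of the 10 genes differed between the groups. Apoe made up 18.5%, 7.97% and 19.3% of their summed CPM per kb in NTD libraries 1 to 3, against 72.9%, 85.0% and 67.3% in controls 1 to 3. Apoa2 took 33.6%, 42.9% and 27.1% of it in NTD, against 0%, 4.72% and 4.36% in controls. Apoa1 and Apoa2 together thus held the largest share in NTD libraries, and Apoe in controls. Per kb, Apoe stood at 0.922, 0.438 and 0.987 times Apoa1 in NTD, against 3.18, 54.1 and 23.9 times in controls. The ratio of Apob to Mttp per kb was 3.61, 1.52 and 5.41 in NTD and 0, 0.183 and 1.297 in controls. Apob to Apoa1 stood at 0.0684, 0.0390 and 0.206 in NTD and at 0, 0.0567 and 2.20 in controls, so control 3 alone had more Apob than Apoa1 per kb.

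**Figure D2:**
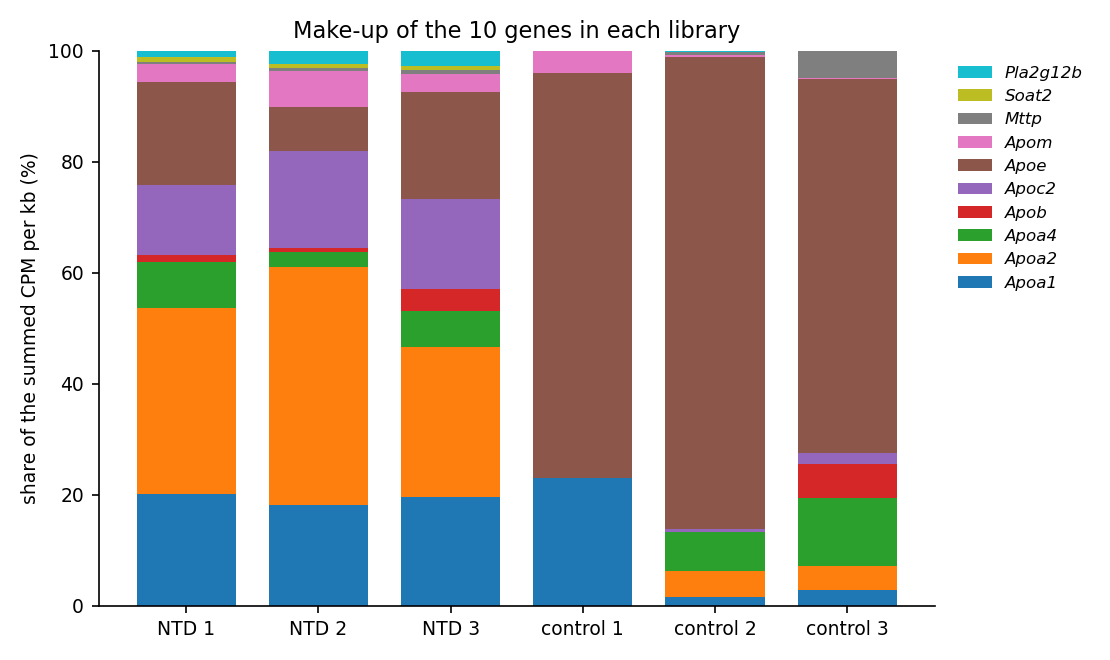
Share of each of the 10 genes in their summed CPM per kb (%), one bar a library, with the 3 NTD libraries left of the 3 controls. Apoa1, Apoa2 and Apoc2 fill most of each NTD bar, while Apoe fills 67.3% to 85.0% of each control bar.

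Within the NTD group the genes fell into different orders across libraries. The highest NTD library exceeded the lowest by 1.19 times for Apoa1, 1.29 for Apoc2, 1.70 for Mttp, 1.73 for Apoa2 and 1.87 for Soat2. The same ratio was 2.14 for Pla2g12b, 2.17 for Apom, 2.48 for Apoe, 3.24 for Apoa4 and 5.24 for Apob. Over 5422 genes with a mean of at least 30 CPM in NTD its median was 1.72 (quartiles 1.38 and 2.37), so Apoe, Apoa4 and Apob lay above the upper quartile. NTD library 2 was the low library for those 3 genes, at 0.425, 0.369 and 0.274 times the mean of NTD 1 and NTD 3. In contrast, Apom was 2.05 times and Apoa2 1.41 times that mean in NTD 2, where the median gene stood at 0.991 (quartiles 0.752 and 1.27).

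Of the marker lists of other cell types, visceral endoderm and trophoblast were far higher in NTD, as these genes were. The hepatoblast, macrophage, parietal endoderm and primitive erythroid sums overlapped between the groups. The 8 visceral endoderm markers in the table summed to 11224, 12201 and 13200 CPM in NTD libraries 1 to 3, against 335, 379 and 582 CPM in controls 1 to 3. Ttr, Amn and Cubn were called higher among the 8 tested, where 1.89% of all genes were called higher. In 7 of 8 every NTD value lay above every control value, as in 12.4% of all genes tested. Afp and Rbp4 were not called (edgeR adjusted p = 0.106 and 0.202). Afp, the fetal serum protein of yolk sac and liver, had 7046, 7735 and 7750 CPM in NTD, against 0, 12.5 and 40.4 CPM in controls, and Rbp4, the retinol carrier, had 1771, 1836 and 2025 CPM in NTD, against 0.173, 2.34 and 60.0 in controls. Afp and Rbp4 were the most even of the 8 across NTD, at 1.10 and 1.14 times from the lowest to the highest library, where Apoa1 stood at 1.19 and the other 6 markers at 1.47 (Amn) to 2.59 (Trf). The 7 hepatoblast markers in the table summed to 2952, 145 and 2523 CPM in NTD, against 199, 126 and 645 CPM in controls, with 0 of 6 tested called. Alb made up most of this sum in NTD 1 and NTD 3. Alb had 2714, 63.0 and 2151 CPM in NTD, against 96.7, 7.89 and 484 in controls, and Cps1, a urea cycle enzyme, had 170, 6.52 and 203 in NTD, against 0, 0.256 and 44.0 in controls. Both were low in NTD 2 and highest among controls in control 3, the libraries where Apob and Apoa4 were low and high in their groups. Prox1 averaged 18.2 ± 11.8 CPM in NTD and 25.3 ± 11.6 in controls, Tbx3 16.0 ± 9.85 in NTD and 19.1 ± 9.01 in controls, and Onecut2 61.0 ± 22.3 in NTD and 67.6 ± 15.5 in controls (SD, n = 3 each), all with overlapping groups. Among defining hepatoblast genes, Ahsg had 0, 0.155 and 12.6 CPM in NTD, against 0, 0 and 0.0522 CPM in controls. Hhex had 0, 0.465 and 14.1 CPM in NTD, against 0, 1.28 and 1.15 CPM in controls. Both were highest in NTD 3.

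Trophoblast markers summed to 227, 302 and 216 CPM over 6 genes in NTD, against 2.29, 0.219 and 1.20 CPM in controls. Hand1, Tpbpa and Prl3d1 were called higher among the 6 tested, where 1.89% of all genes were called higher. Of the 6, 5 were under the filter minimum in every control and so entered through their NTD values, Tpbpa and Prl3d1 among them. Over all genes, 207 of the 11626 tested were under it in every control. Macrophage markers, of interest since macrophages make apolipoprotein E, summed to 14.5, 49.0 and 64.4 CPM over 9 genes in NTD, against 67.4, 57.0 and 63.4 CPM in controls. Csf1r was at 0 in all 3 NTD libraries and in controls 2 and 3, and Aif1 and Ptprc did not exceed 0.0781 CPM in NTD or 0.259 CPM in controls. The 3 highest markers of the list in NTD were present in both groups. Mrc1 had 0.664, 17.2 and 34.1 CPM in NTD, against 31.9, 8.73 and 5.48 CPM in controls. Cd68 had 11.4, 8.76 and 14.01 CPM in NTD, against 4.96, 13.8 and 31.2 CPM in controls, and Cx3cr1 had 2.23, 11.3 and 14.2 CPM in NTD, against 0.259, 17.9 and 12.6 CPM in controls. All 3 overlapped between the groups. Parietal endoderm, endothelial and primitive erythroid lists had 0 of 4 markers called each, with sums of 827 to 942, 244 to 295 and 10691 to 12064 CPM in NTD, against 711 to 930, 170 to 199 and 5740 to 16087 CPM in controls. The part of these cell types in the levels of the 10 genes was not tested.

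**Figure D3:**
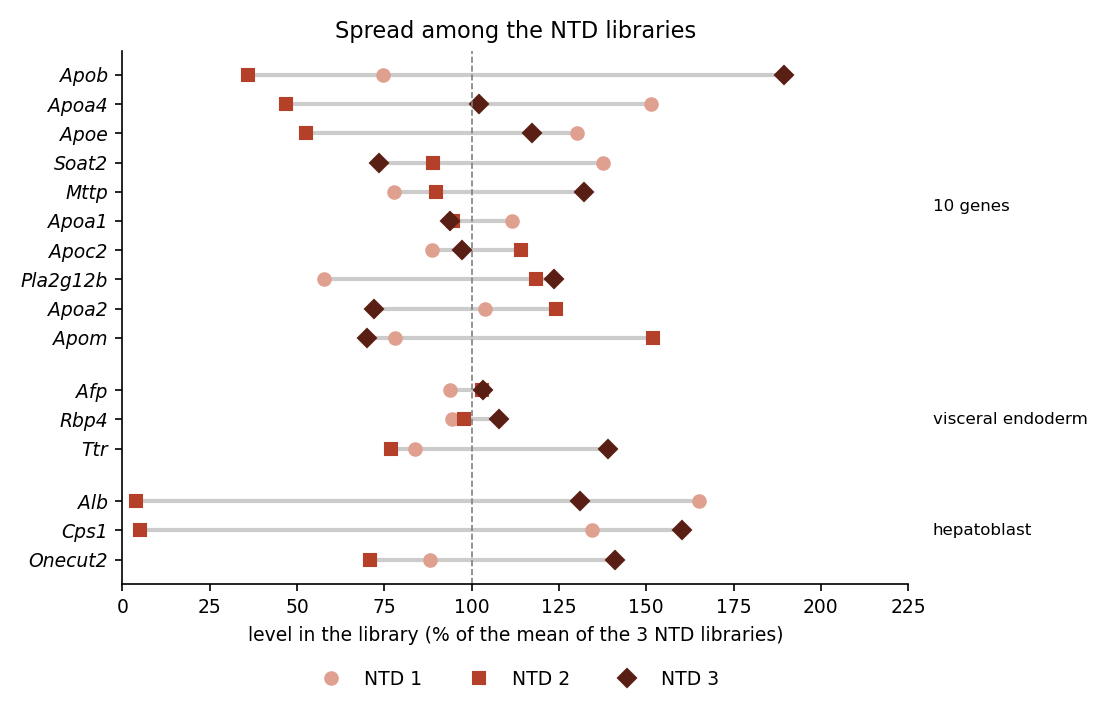
Level of each gene in NTD libraries 1, 2 and 3 as a percentage of the mean of the 3, for the 10 lipoprotein genes (ordered by NTD 2) and the 3 highest markers of visceral endoderm and of hepatoblasts; grey bars span the libraries and the dashed line marks the mean. Apob, Apoa4 and Apoe are low in NTD 2, at 36.1%, 46.7% and 52.6%, as are Alb and Cps1 at 3.83% and 5.15% and, less so, Onecut2 at 70.9%; Afp and Rbp4 stay between 93.8% and 108%, while Ttr spans 76.9% to 139%.

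Other genes of the lipoprotein pathway, which did not define the 10 genes, were tested in the same fit. Of 84 genes in 6 lists, 78 were in the table and 59 were tested; 5 were called higher (8.47%, against 1.89% of all genes) and 0 lower (against 0.998%). Of the 5, Fabp1 and Slc27a2 were under the filter minimum in every control and so entered the test through their NTD values, and the lists were chosen with earlier results known. At an unadjusted p under 0.05, 24 of the 59 were higher (40.7%, against 8.31% of all genes) and 1 lower (1.69%, against 6.73%). The median log2 fold change was 1.46 over the 59 genes and -0.02 over all genes tested. Of the 59, 8 were under the filter minimum in every control, against 207 of the 11626 genes tested. Such genes entered through their NTD values, which favours the higher side in these comparisons. DESeq2 tested 63 pathway genes and called 24 higher and 1 lower, where it called 6.47% of all genes higher and 4.24% lower.

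Lipoprotein receptors had 2 of 12 genes called higher. Scarb1 encodes the HDL receptor that takes up cholesteryl ester, and mouse embryos without it can fail to close the cranial neural tube. Scarb1 had 93.1, 35.1 and 93.7 CPM in NTD libraries 1 to 3, against 9.66, 2.85 and 8.82 CPM in controls 1 to 3. It was higher in all 3 NTD libraries, with a log2 fold change of 3.38 ± 0.64 (edgeR adjusted p = 0.0263). Lsr, a receptor for apolipoprotein B and E particles and a protein of tricellular junctions, had 87.4, 86.2 and 146 CPM in NTD, against 32.4, 32.5 and 27.9 CPM in controls. Its log2 fold change was 1.78 ± 0.35 (edgeR adjusted p = 0.0292). Lrp2, the endocytic receptor megalin of visceral endoderm and neuroepithelium, had 192, 235 and 177 CPM in NTD, against 77.2, 21.1 and 13.1 CPM in controls. The groups did not overlap, but Lrp2 was not called (log2 fold change 2.44 ± 0.60, edgeR adjusted p = 0.0672). It passed the threshold without control library 1 (log2 fold change 3.56, edgeR adjusted p = 0.00291), in DESeq2 (adjusted p = 0.00121) and in limma-voom (adjusted p = 0.00796), and over all alternatives its adjusted p ran from 0.00121 to 0.231.

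Fatty acid uptake and storage genes had 2 of 10 called higher. Fabp1, the fatty acid binding protein of liver and yolk sac, had 63.2, 7.64 and 56.1 CPM in NTD, against 0, 0.0730 and 0.209 CPM in controls (log2 fold change 8.79 ± 1.41, edgeR adjusted p = 0.0119, 6 pooled control counts). Slc27a2, a very long chain acyl-CoA synthetase and fatty acid transporter, had 39.2, 3.72 and 41.4 CPM in NTD, against 0, 0 and 0.209 CPM in controls (log2 fold change 8.65 ± 1.91, edgeR adjusted p = 0.0462, 4 pooled control counts). Both were low in NTD 2, as Apob was. Of 13 transcription factors tested, Gata4, a regulator of visceral endoderm and heart, was called higher, with 55.4, 48.3 and 41.2 CPM in NTD, against 0, 0.110 and 0.522 CPM in controls (log2 fold change 7.85 ± 1.25, edgeR adjusted p = 0.0113). Hnf4a had 63.7, 55.3 and 36.3 CPM in NTD, against 10.05, 0 and 0.678 CPM in controls, and was not called (log2 fold change 3.85 ± 1.60, edgeR adjusted p = 0.297). Without control library 1 its log2 fold change was 7.30 and it was called (edgeR adjusted p = 0.0448), the lowest adjusted p of its alternatives, which reached 0.565.

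Among other apolipoproteins, 0 of 5 tested were called. Apoc1, which inhibits lipoprotein uptake and lies between Apoc4 and Apoe, had 72.8, 49.2 and 61.3 CPM in NTD, against 0, 2.63 and 1.51 CPM in controls, with a log2 fold change of 5.46 ± 1.26 and an edgeR adjusted p of 0.0549. It passed the threshold without control library 1 (edgeR adjusted p = 0.00729) and in DESeq2 (adjusted p = 1.6e-05). In limma-voom its adjusted p was 0.0890. Apoc1 was called in 3 of 14 alternatives, over which its adjusted p reached 0.206. Apoc3, the lipase inhibitor between Apoa1 and Apoa4, had 11.7, 18.9 and 2.34 CPM in NTD and 1 count in all 3 controls together (edgeR adjusted p = 0.0885). Apoa5 had 10.2, 0.0388 and 37.9 CPM in NTD, against 0, 0 and 0.0522 CPM in controls. Apoc4 had 15.3, 0.271 and 0 CPM in NTD and 0 counts in the controls. Neither of these last 2 genes passed the filter, so each cluster held abundant transcripts beside neighbours near 0 in at least 1 NTD library. Particle assembly genes had 0 of 10 called, and P4hb, the subunit that Mttp needs, had 100.2, 1.78 and 14.6 CPM in NTD, against 6.56, 0.110 and 29.5 CPM in controls, with overlapping groups (edgeR adjusted p = 0.773). Lipases, remodelling and efflux genes had 0 of 9 called. Calls depended on single libraries, among pathway genes and over all genes. Of pathway genes, 0 were called higher without NTD 1 or without NTD 3, and 4 without NTD 2. The number was 8 without control 1, 1 without control 2 and 3 without control 3. Over all genes, 0.267% were called higher without NTD 1, 0.634% without NTD 3 and 0.871% without NTD 2. That share was 1.79% without control 1, 0.747% without control 2 and 1.23% without control 3, against 1.89% with every library. Of these 6 fits, Scarb1 was called in 2, Lsr in 0, Fabp1 in 3, Slc27a2 in 1 and Gata4 in 3. In limma-voom, Lsr alone of them was called (adjusted p = 0.0459). The limma-voom adjusted p was 0.0593 for Gata4, 0.117 for Scarb1, 0.190 for Slc27a2 and 0.215 for Fabp1.

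**Figure D4:**
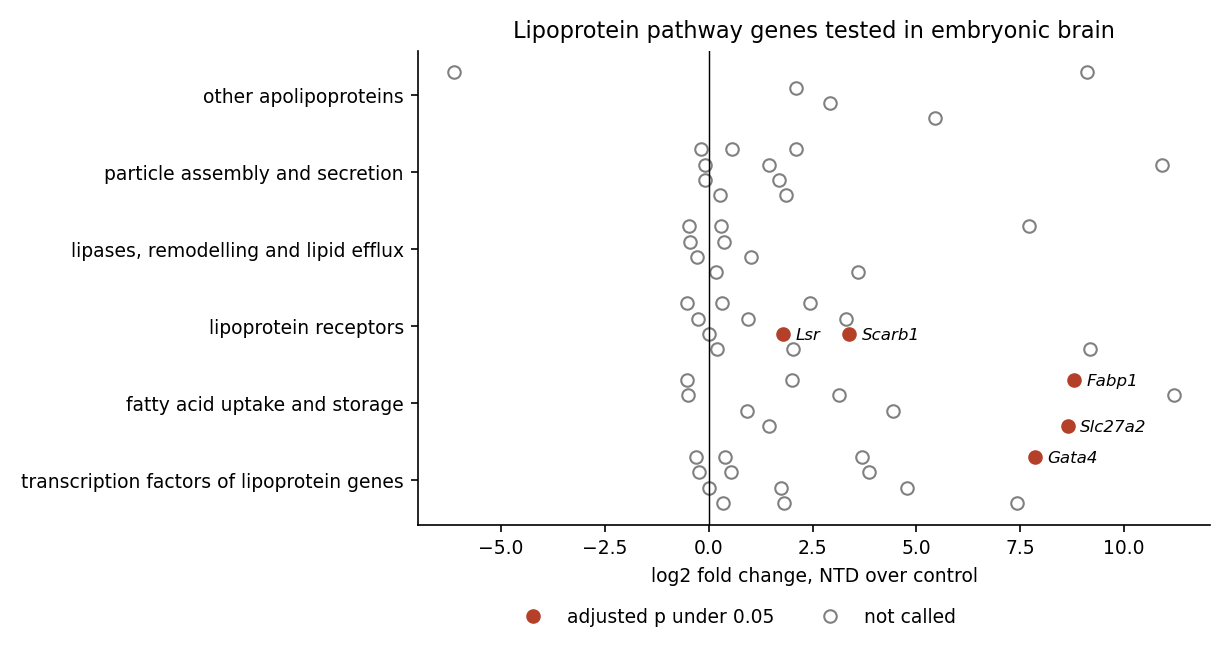
Log2 fold change, NTD over control, of the 59 tested pathway genes outside the 10, by list; filled points are the 5 genes called higher and open points were not called. Scarb1, Lsr, Fabp1, Slc27a2 and Gata4 are filled, and no gene on the left of 0 is.

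In mESC, the columns were assigned to FA0 and FA4 through the case and control labels of the samples and the case and control means in the table, since their names are abbreviations, and the direction of each ratio below rests on that. The deposited table lists 9217 genes, and only those with a peak of a second assay, so absence from it says nothing of a gene's level. Apoe and Soat2 were listed, and the other 8 genes were not. This readout played no part in the choice of genes, and with 1 library per group no test was possible. Apoe had 114 FPKM in FA0 and 112 FPKM in FA4, from 985 and 707 counts. Scaled by the 1.33-fold greater depth of FA0, the count ratio was 1.04 (95% exact binomial interval 0.947 to 1.15, counting error only). Soat2, near 0 in control brain libraries, had 2.29 FPKM in FA0 and 0.740 FPKM in FA4, from 37 and 9 counts, a count ratio of 3.08 (interval 1.46 to 7.26). Differences of log2(FPKM + 1), a scale on which low genes change less, were 0.03 for Apoe and 0.92 for Soat2. The interval of Apoe thus included 1, while Soat2 was higher in the FA0 library by more than counting error, with no replicate to judge it by.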

How the data were processed

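RNA was depleted of ribosomal RNA and sequenced as paired reads of 150 bp, per the labels' protocols. Cutadapt 1.9.3, HISAT2 2.0.4, HTSeq 0.9.1, edgeR and build mm10 are named in the submitters' processing notes; the sources used here do not give annotation or strand setting. The authors deposited raw counts per gene for brain, per the file headers, and for mESC estimated counts, rounded here, and FPKM values. For brain, 6 further columns of per-sample values were not used.

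The test on brain counts was that of edgeR 4.0.16 (quasi-likelihood F-test, robust, TMM, filterByExpr) and Benjamini-Hochberg adjustment over 11626 genes, called under 0.05. Standard errors come from the test statistic. Exon lengths come from GENCODE M21. The alternatives were DESeq2 1.42.0, limma-voom 3.58.1, size factors, library totals, 2 other filters, a replicate block, each library left out in turn, pseudocounts of 0.1 and 5 and a count ratio for mESC, and promoters of 250 bases. The joint removal of control library 1 and NTD library 3 was chosen after seeing the data. The fit was tested on simulated data.

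The 10 genes and the lists were chosen with earlier results of these data known. Named were the 10 genes, up to 8 called genes a pathway list, 9 pathway genes regardless of value (1 is not reported here), and the 3 highest markers a list in NTD; other markers (Amn, Cubn, Ahsg, Hhex, Csf1r, Aif1, Ptprc, Sox2) were named after their values were seen. No label ties replicates to different litters; a p-value therefore reflects only variation among these libraries, which may be technical. PCR duplicates are not marked, so intervals cover counting error only.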

Additional observations from a re-analysis of the deposited data

How the results depend on the processing

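The 7 calls among the 10 genes stayed between 5 and 7 under the other tests, scalings and filters and the joint removal of control library 1 and NTD library 3. Leaving out a library gave 3 (without NTD 1) to 8 calls, with 4 without control 2. Of pathway genes, 5 were called higher, and leaving out a library gave 0 to 8. DESeq2 gave 24 higher and 1 lower, limma-voom 2 higher, and the joint removal 8. The choice of the genes fixes the direction of these calls. The summed level of the 10 genes was 13.9-fold (joint removal) to 34.6-fold (without control 3) higher in NTD over its 12 alternatives; limma-voom and the block give no value for it. The log2 fold changes of all 10 genes stayed positive in every alternative, from 2.00 (Mttp, joint removal) to 10.90 (Apoc2, without control 3). Of the 21 genes followed through the alternatives, P4hb alone changed sign, with log2 fold changes from -0.72 (without NTD 1) to 3.54 (without control 3). Its cause was not tested. Replicate numbers did not pair the libraries: deviations of same-numbered libraries correlated at -0.021, 0.093 and 0.031, and with a replicate block 5 of the 10 genes and 3 pathway genes were called. All genes called numbered 220 higher and 116 lower, 780 and 511 with DESeq2, and 132 and 73 with the block. Levels of Apoe and Soat2 in mESC kept their direction. Depth limits statements on genes at 0 to 6 pooled control counts.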
